A study of Mus musculus with 20 samples.

Results

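The HoxC and HoxD clusters of murine hematopoietic stem cells (HSCs) were examined as all 100 bp bins on chr15:102915000-103045000 (HoxC) and chr2:74660000-74770000 (HoxD) of mm10. These intervals held 644 of the 1201951 bins of the deposited data, 330 in HoxC and 314 in HoxD. DNA methylation was measured by reduced representation bisulfite sequencing (RRBS), which reads CpG sites in restriction fragments rich in CpG. The HSCs of C57BL/6 mice (C57BL/6 J in the study's methods, female and 3 months old at the start) formed 4 groups by number of cycles of 5-fluorouracil, untreated (0x, n = 4), 2 cycles (2x, n = 6), 4 cycles (4x, n = 4) and 10 cycles (10x, n = 6). 5-fluorouracil (5FU) is an antimetabolite that kills cycling cells, so that surviving HSCs divide to restore the blood. It was given every 3 weeks. Per the study, HSCs for RRBS were sorted 1 month after treatment ended, and its animals were near middle age when analysed. Its mention of controls matched in age comes with the DNA damage assay. The labels give no age for each sample. Blood is the tissue named in the labels, and the study's methods describe a sort of PI-Lin-cKit+Sca1+CD34-Flk2-CD150+ cells from bone marrow. The labels do not state whether samples came from different mice. The p-values below thus cover the spread among these 20 samples only, and that spread may be technical. At 0x, over all deposited promoter bins, filled values included, promoters of HSC markers had a median methylation of 7.91% (6 genes), against 72.1% for B cell markers (3 genes) and 73.1% for T cell markers (2 genes). In the fully varying bins described below the check rests on 2 HSC markers (median 3.66%) and 1 B cell marker (69.3%), with no T cell marker.

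Hox genes encode homeodomain transcription factors that set position along the body axis. In mammals they lie in 4 clusters, HoxA to HoxD, and genes at one end of a cluster are expressed early and anteriorly while genes at the other end are expressed late and posteriorly. Silent Hox genes are held by Polycomb complexes on CpG-rich DNA that is largely free of methylation, and DNA methylation gained in such regions is a known feature of ageing tissues and of blood cancers. In HSCs, HoxA and HoxB genes carry most of the Hox expression, and HoxC and HoxD genes are mostly low. No expression was analysed here.

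The deposited value is the percent methylation of a bin in a sample, without reads, and its depth is unknown. Bins missing from a sample had been filled with the mean of the group, and the filled values are not marked. Therefore the bins were separated into those in which no value other than 0 or 100 recurred within a group and every group varied (168 bins, 26.1%, with 85 in HoxC and 83 in HoxD), those with no recurring value but a group at a single 0 or 100 throughout (185 bins, 28.7%), and those with a recurring value (291 bins, 45.2%). The 168 bins are called fully varying bins below, and all results come from them unless stated otherwise. This choice uses the treated samples, since a bin at 0 or 100 throughout any group is left out. In the whole series, 7.0% of bins (84131) were of this kind. A total of 97 of the 644 bins had the same value in all 20 samples, 80 of them at 0% and 13 at 100%.

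The sequences of 8 bins on which the results below turn are shown from the GRCm38 RefSeq assembly (the assembly of mm10), forward strand, with CpG sites in capitals (a lone capital at the edge belongs to a CpG that crosses it). The first 4 are HoxC bins, a single CpG after a Hoxc6 start, a neighbouring pair upstream of Hoxc5, and a bin upstream of Hoxc10. The other 4 are HoxD bins, at Hoxd4, between Hoxd9 and Hoxd8, in an intron of Hoxd3, and in an intron of Haglr. They hold 1 to 6 CpG sites each.
chr15:103010300-103010399: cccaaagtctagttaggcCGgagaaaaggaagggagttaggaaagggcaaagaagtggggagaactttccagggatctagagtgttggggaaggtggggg
chr15:103012000-103012099: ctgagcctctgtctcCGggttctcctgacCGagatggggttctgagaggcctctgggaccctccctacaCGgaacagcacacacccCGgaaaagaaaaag
chr15:103012100-103012199: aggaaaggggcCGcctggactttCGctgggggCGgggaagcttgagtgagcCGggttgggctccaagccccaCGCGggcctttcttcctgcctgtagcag
chr15:102963700-102963799: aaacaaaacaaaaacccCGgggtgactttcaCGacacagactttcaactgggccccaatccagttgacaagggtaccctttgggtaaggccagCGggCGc
chr2:74721800-74721899: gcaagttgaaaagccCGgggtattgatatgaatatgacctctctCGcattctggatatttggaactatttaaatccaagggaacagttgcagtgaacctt
chr2:74700800-74700899: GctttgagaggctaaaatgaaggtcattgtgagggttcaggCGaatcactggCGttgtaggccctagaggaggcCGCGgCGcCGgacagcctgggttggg
chr2:74734700-74734799: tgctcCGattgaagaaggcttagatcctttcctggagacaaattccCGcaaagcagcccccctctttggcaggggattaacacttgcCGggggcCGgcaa
chr2:74754400-74754499: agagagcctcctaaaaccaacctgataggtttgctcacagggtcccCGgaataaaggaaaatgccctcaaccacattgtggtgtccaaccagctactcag

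The clusters were lowly methylated in untreated HSCs. The 0x mean of the 168 bins ranged from 0.112% to 92.2% with a median of 8.07%, against a median of 56.0% over the 84131 fully varying bins of the series. Of the 168 bins, 60.1% lay below 10%, 60 bins (35.7%) between 10 and 50%, and 7 bins (4.17%) above 50%. In the whole series the corresponding shares were 36.4%, 12.1% and 51.6%. The bin with the lowest 0x mean lay 87 bp after the Hoxd9 start (0, 0, 0.448 and 0% in the 4 samples). The bin with the highest was chr2:74754400-74754499 in the intron of Haglr, a long noncoding RNA gene beside Hoxd1 (86.4, 100, 92.3 and 89.9%). HoxC had no bin as high, and its highest was an intronic bin of Gm30528, a predicted gene at the anterior end, with a mean of 66.2% and a range from 23.4 to 88.1%.

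**Figure D1:**
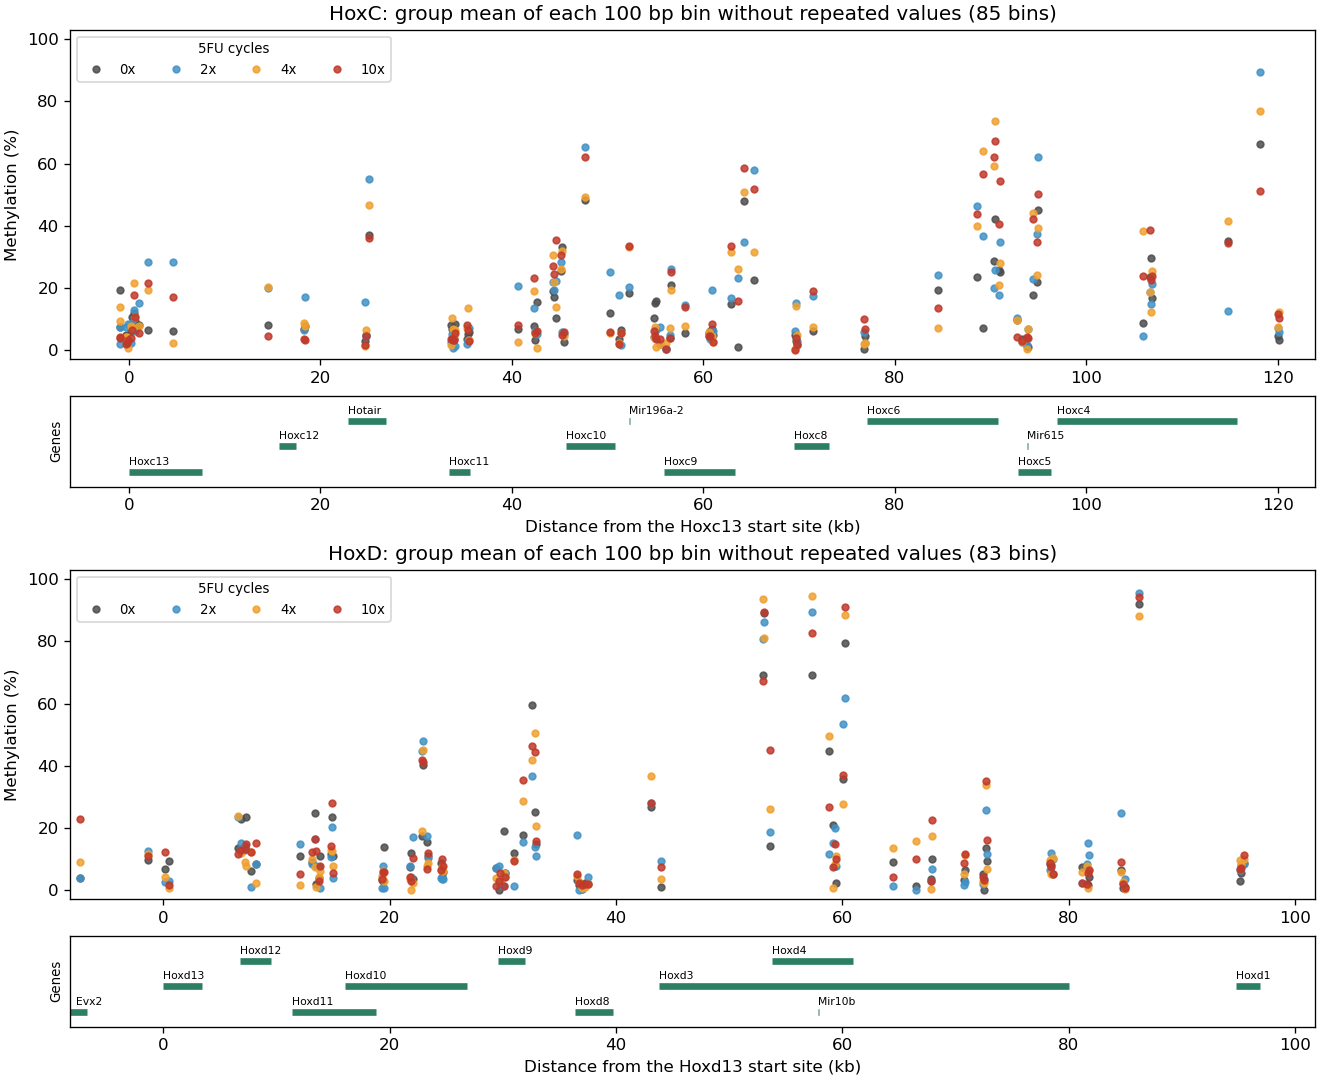
Methylation across HoxC and HoxD. Each point is the group mean (percent) of a fully varying bin, placed by distance from the Hoxc13 or Hoxd13 start (kb) above the genes, with groups by colour; most points of all 4 groups lie near 0, and several HoxD points above 60% lie at Hoxd4 and Mir10b.

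The gap between the clusters and the series was widest outside promoters. Fully varying bins within 1 kb of a transcription start site (TSS) averaged 9.46% at 0x in HoxC (45 bins) and 14.98% in HoxD (46 bins), against 13.9% in the whole series. HoxC promoter bins were below those of the series in 18 of 20 samples, and HoxD promoter bins in 4 of 20. Exonic, intronic and intergenic bins of the clusters averaged 15.3% (33 bins), 14.6% (26 bins) and 18% (18 bins), against 66.6%, 72.4% and 74.6% in the series. In 20 of 20 samples, each of these 3 classes was lower in HoxC and in HoxD than in the series. The level also followed the number of CpG sites, at 21.4% in 50 bins with 1 to 3 sites, 13.4% in 67 bins with 4 to 7 and 6.86% in 51 bins with 8 or more. Across bins, the rank correlation between CpG number and 0x level was -0.34 in the clusters (n = 168) and -0.59 in the series, where neighbouring bins and base composition are shared between points. The restriction site CCGG was in 158 of the 168 bins (94.0%), against 94.8% in the series. The HoxA and HoxB clusters, with 80 fully varying bins each, averaged 21.6 ± 2.20% and 22.8 ± 2.28% at 0x (SD, n = 4). HoxC and HoxD were each below HoxB in 20 of 20 samples, and below HoxA in 16 and 19 of 20 samples. The HoxA and HoxB intervals (chr6:52150367-52265880 and chr11:96189316-96373254) were set from the spans of their genes, and the mix of promoter and other bins was not matched. At promoters of the Hox genes the order differed, with 0x medians of 8.07% for HoxA, 3.86% for HoxB, 8.62% for HoxC and 12% for HoxD.

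Next, the mean of each cluster was compared between groups. HoxC averaged 13 ± 1.74% in 0x (15.4, 11.4, 12.9 and 12.1%), 16 ± 2.62% in 2x (11.8 to 18.7%, median 16.8%), 16.5 ± 1.76% in 4x (14.4, 17.3, 15.7 and 18.5%) and 17 ± 3.80% in 10x (12 to 23.1%, median 17.1%). The differences from 0x were 3.07 (SE 1.38), 3.50 (SE 1.24) and 4.08 (SE 1.78) percentage points. The groups overlapped in each comparison, with 4 of 6 2x samples, 3 of 4 4x samples and 4 of 6 10x samples above all 0x samples. HoxD moved less. It averaged 14.7 ± 1.51% in 0x (13.6, 16.7, 15.1 and 13.4%), 14.9 ± 2.67% in 2x (10.3 to 18.1%, median 15.2%), 15.2 ± 1.09% in 4x (16.1, 15.7, 13.6 and 15.4%) and 16.5 ± 1.62% in 10x (14 to 19%, median 16.4%). Its differences of 0.176 (SE 1.33) and 0.472 (SE 0.934) points in 2x and 4x were smaller than their errors, and that in 10x was 1.75 (SE 1.01) points. The mean over all fully varying bins of the series differed by 0.416, 0.823 and 1.222 points. No p is given for a cluster mean, and whether HoxC differs from HoxD in its response was not tested.

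**Figure D2:**
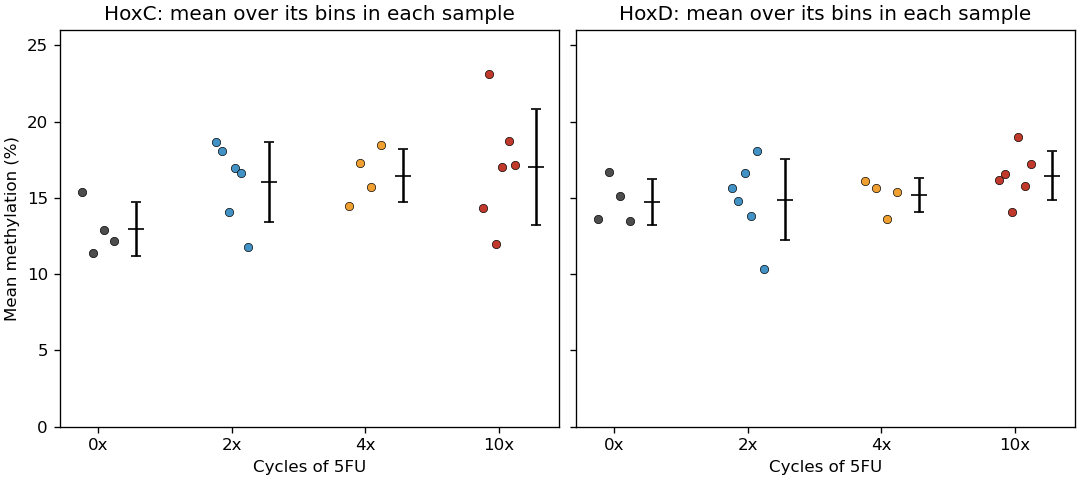
Mean methylation (percent) of HoxC and HoxD fully varying bins per sample. Points are samples, grouped by 0, 2, 4 and 10 cycles, and bars give the mean ± SD; HoxC samples of the treated groups reach 23.1%, and HoxD groups overlap throughout.

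The HoxC difference at 2x depended on which bins were taken. The fully varying bins leave out bins at 0 throughout a group, treated groups included. Of the 94 HoxC bins with a constant group and no recurring value, 85 were at 0 throughout 2x and 61 throughout 0x. Their mean differed from 0x by -3.44, -0.72 and -0.51 points in 2x, 4x and 10x. The difference from 0x was taken in each bin, and its median over bins was 1.79, 1.64 and 1.13 points for HoxC (2x, 4x and 10x). For HoxD this median was -0.43, 0.502 and 1.26 points, beside 0.179, 0.320 and 0.509 points over all fully varying bins. Over all 330 deposited HoxC bins the group means were 15.9, 14.8, 16.4 and 17.6% in 0x, 2x, 4x and 10x, so that 2x lay below 0x. Over all 314 HoxD bins they were 18.3, 17.9, 18.4 and 18.1%. The 2x samples also held more exact zeros, in 37.6 to 65.9% of the HoxC bins of a sample, against 17.6 to 40% in 0x samples. In HoxD the shares were 31.3 to 57.8% in 2x and 15.7 to 39.8% in 0x. The median SD of a bin was 11.5 points in 2x, and 6.95, 6.58 and 6.92 points in 0x, 4x and 10x. Zeros were also more frequent in 2x over the whole series, at 23.6 to 30.7% of the fully varying bins of a sample in 2x, against 13.7 to 24.7% in 0x. The part of these zeros in the 2x values was not tested.

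Bins at intermediate methylation were examined separately. Among bins with a mean of 20 to 80% over all samples, which is a choice that uses the treated samples, 25 HoxC bins averaged 26.7 ± 6.45%, 33.7 ± 4.10%, 37.2 ± 3.27% and 41.6 ± 10.9% in 0x, 2x, 4x and 10x. The 10x samples ranged over 25.9 to 53.6% and the 0x samples over 19.3 to 34.7%, and overlapped. For 13 such HoxD bins the means were 36.0, 35.3, 42.6 and 43.7%, with 2x slightly below 0x. The differences from 0x in 14308 bins of the series chosen in the same way were 0.769, 1.82 and 2.43 points. The median 0x level was 8.07% in the clusters and 56.0% in the series. The choice can thus take cluster bins for being high in treated samples, and the series values are no like background.

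Each bin was then tested with limma, with p-values adjusted over all fully varying bins of the series (Benjamini-Hochberg), at an adjusted p under 0.05 and at least 10 points. None of the 168 bins was called in 2x, 4x or 10x against 0x, or in the slope of methylation over the number of cycles, which had no minimum. Calls were rare in the whole series, at 0.00357%, 0.00713%, 0.0131% and 0.00119% of bins. The smallest adjusted p in the clusters was 0.508, in HoxD in 10x. At an unadjusted p under 0.05, 2x had 3 cluster bins higher and 4 lower (background 2.32% higher and 1.47% lower), 4x had 4 higher and 2 lower (2.29% and 1.40%), 10x had 6 higher and 3 lower (4.13% and 2.11%), and the slope had 8 higher and 1 lower (2.26% and 1.29%). By cluster, HoxC had 1, 1, 4 and 3 higher bins of 85 in these 4 fits, and HoxD had 2, 3, 2 and 5 of 83.

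Promoters were examined next, as the mean of the fully varying bins within 1 kb of a TSS. Of the 31 RefSeq genes in the intervals, 28 had such a bin (13 in HoxC, 15 in HoxD), including 17 Hox genes. None was called at an adjusted p under 0.05 (limma with Benjamini-Hochberg adjustment over 15092 genes), where the background was 0.0199% in 10x and 0% in each of the other 3 fits. At an unadjusted p under 0.05, no cluster promoter passed in 2x (background 1.29% higher and 1.97% lower), and none was lower in any fit. Hoxc6 and Mir615 were the 2 that passed as higher in 4x (2.05% higher and 1.72% lower) and in 10x (2.86% and 3.20%). Both passed in the slope too (2.39% and 1.34%), with Gm29905, a predicted gene that shares its promoter bins with the upstream start of Hoxc6.

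Hoxc6 encodes a homeodomain factor of the middle of the cluster and has several TSSs, the first at chr15:102998226. Its 4 promoter bins averaged 16.6, 11.7, 4.72 and 2.19% in the 0x samples, 6.25 to 36.3% (median 25.9%) in 2x, 19.4, 20.2, 29.3 and 39.3% in 4x, and 16.4 to 45.4% (median 27.9%) in 10x. All 4x samples were above all 0x samples, while the lowest 10x and 2x samples fell within the 0x range. The difference was 18.2 points in 4x (SE 5.20, limma adjusted p = 0.976) and 20.5 points in 10x (SE 6.09, adjusted p = 0.604), and it was 14 points in 2x (SE 6.22). Much of it came from 1 bin, the single CpG of chr15:103010300-103010399 shown above. Over the 3 other bins, which are those within 500 bp of a TSS, the difference was 5.38 points in 4x (SE 6.83, limma adjusted p = 0.971) and 10.8 points in 10x (SE 3.97, adjusted p = 0.770). With all 18 deposited promoter bins the Hoxc6 means were 8.60, 15.2, 21.3 and 17.3% in 0x, 2x, 4x and 10x. In the samples numbered 01 to 12 the 4x difference was 5.64 points and in those numbered 13 to 34 it was 30.8 points, while the 10x differences were 21.8 and 22.5 points.

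Mir615 is a microRNA gene within Hoxc5, and 3 of its 5 promoter bins are shared with Hoxc5. The Mir615 promoter averaged 9.15, 9.95, 10.1 and 7.17% in 0x, 2.86 to 22.2% (median 15.6%) in 2x, 14.9, 21.0, 16.6 and 9.74% in 4x, and 8.66 to 26.2% (median 18.8%) in 10x. In 4x and in 10x, 1 sample lay within the 0x range. Its differences were 6.47 points in 4x (SE 2.31, limma adjusted p = 0.976) and 8.51 points in 10x (SE 2.91, adjusted p = 0.683). With bins within 500 bp of its start only, they were 2.49 points in 4x (SE 1.43) and 2.93 points in 10x (SE 1.46).

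The other HoxC promoters differed in level and direction. Those of the posterior genes Hoxc13 and Hoxc11 averaged 5.95 ± 2.59% and 3.78 ± 1.25% in 10x, against 8.42 ± 1.70% and 6.02 ± 2.98% in 0x, with differences of -2.46 (SE 1.48) and -2.23 (SE 1.36) points. The Hoxc8 promoter was at 1.99% in 10x and 3.16% in 0x, and the Hoxc5 promoter at 3.85% in 10x and 3.87% in 0x. Hoxc4, the most anterior HoxC gene, had 1 promoter bin, which it shares with Gm30528. This bin was at 26.7, 34.8, 62.9 and 16.3% in 0x, 0 to 35.2% (median 8.74%) in 2x, 45.9, 35.2, 41.4 and 43.3% in 4x, and 14.6 to 74.7% (median 29.7%) in 10x. In 2x it was at 0 in 3 of 6 samples, and the difference from 0x of -22.5 points was not called (SE 10.2).

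**Figure D3:**
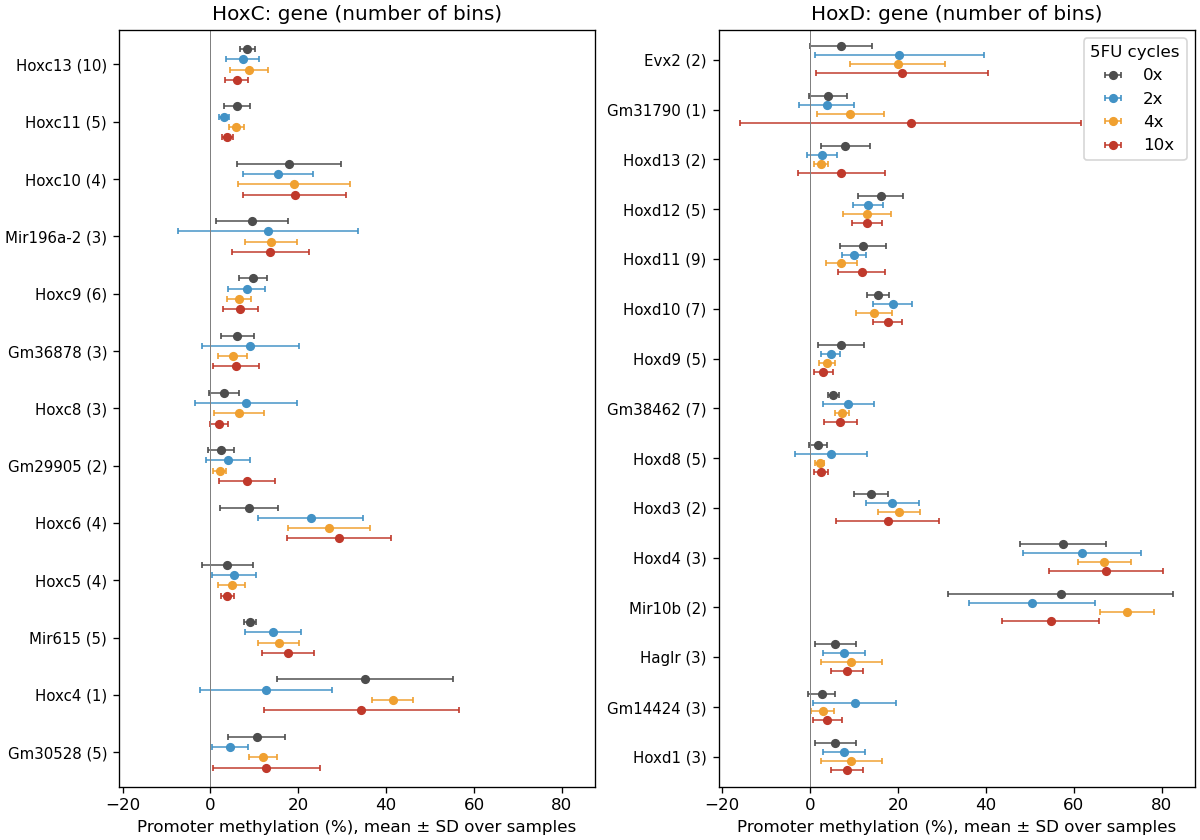
Promoter methylation (percent) of the 28 genes, in genomic order within each cluster. Points are group means of the samples and bars the SD, by number of cycles; Hoxd4 and Mir10b stand at 50.5% or higher in each group, and Hoxc6 is lower in 0x than in the treated groups.

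In HoxD, the fully varying promoter bins of Hoxd4 and Mir10b were methylated on average and those of the other genes were low. Hoxd4, an anterior HoxD gene, had 52.9, 59.7, 70.3 and 47.6% in 0x, 46.6 to 76.5% (median 62.7%) in 2x, 75.2, 62.3, 68.0 and 62.4% in 4x, and 46.6 to 85.9% (median 66.0%) in 10x. Mir10b is a microRNA gene in the same stretch of the cluster. It showed 53.9, 93.3, 47.3 and 33.6% in 0x, 37.7 to 75.8% (median 44.3%) in 2x, 77.4, 74.6, 63.3 and 73.3% in 4x, and 39.2 to 68.5% (median 56.8%) in 10x. The groups overlapped for both genes, and the differences in 10x were 9.73 points (SE 7.07) for Hoxd4 and -2.33 points (SE 10.7) for Mir10b. The Hoxd4 values rest on 3 bins, and the bin nearest the start, described below, was far lower than their mean. Over all 8 deposited promoter bins, Hoxd4 averaged 34.5, 40.5, 39.6 and 38.3% in 0x, 2x, 4x and 10x. For Mir10b, the means over its 8 deposited bins were 76.8, 66.2, 75.4 and 64.9%. The 10 kb window that holds both genes averaged 43.3, 44.5, 48.2 and 47.2% in 0x, 2x, 4x and 10x, and the other 9 tested HoxD windows were between 5.52 and 20.9% in 0x.

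The lowest HoxD promoter was that of Hoxd8 (2.50 ± 1.59% in 10x and 1.82 ± 1.98% in 0x). Posterior Hoxd9 to Hoxd13 promoters were at 7.01 to 16% in 0x. Hoxd9 had 1.16 to 6.72% (median 2.46%) in 10x and 4.51, 8.75, 1.44 and 13.3% in 0x, and overlapped, with a difference of -3.98 points (SE 2.20, limma adjusted p = 0.858). Evx2, a homeodomain gene at the posterior end of the cluster, had 8.65 to 60.2% (median 13.5%) in 10x, where a single sample, replicate 32, set the upper value, and 10.3, 2.54, 15.2 and 0% in 0x. Hoxd1 and Haglr share the same 3 bins, which averaged 8.40% in 10x and 5.71% in 0x.

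Larger stretches were tested as 10 kb windows with at least 3 fully varying bins. A total of 10 HoxC and 10 HoxD windows could be tested, and none was called at an adjusted p under 0.05 (limma, adjusted over 8689 windows of the series, where 0% were called in each of the 4 fits). At an unadjusted p under 0.05, no cluster window passed in 2x (background 1.98% higher and 1.94% lower). In 4x, 1 HoxC window was higher (2.51% and 1.63%). In 10x, 2 HoxC windows were higher and 1 was lower (4.97% and 2.84%). In the slope, 1 HoxC and 1 HoxD window were higher (3.10% and 1.58%).

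The HoxC window with the smallest p in 4x, in 10x and in the slope was chr15:103010000-103019999, which holds the end of Hoxc6, the starts of Hoxc5, Mir615 and Hoxc4, and 12 fully varying bins. It averaged 23.6, 19.6, 19.9 and 13.4% in 0x, 14.8 to 28.6% (median 23.8%) in 2x, 27.6, 31.5, 32.8 and 32.4% in 4x, and 24.3 to 45.3% (median 33.8%) in 10x. Every 4x and every 10x sample was above every 0x sample, and 2x overlapped 0x. The differences were 4.11 points in 2x (SE 2.83), 12 points in 4x (SE 2.34, limma adjusted p = 0.518) and 16.2 points in 10x (SE 4.10, adjusted p = 0.305). The slope was 1.55 points per cycle (SE 0.320, limma adjusted p = 0.270). In the samples numbered 01 to 12 and 13 to 34, the slope was 1.66 and 1.52 points per cycle.

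Within this window, 10 of the 12 bins were higher in 10x than in 0x, and 8 of 12 in 4x and in 2x. These 12 bins include all 5 promoter bins of Mir615 and the Hoxc6 bin with a single CpG. The window, promoter and bin results thus share values and are not separate findings. The 19 other deposited bins of the window, with a recurring value or a constant group, averaged 31.9 ± 5.16%, 32.3 ± 3.04%, 39.0 ± 2.43% and 40.03 ± 9.38% after 0, 2, 4 and 10 cycles. The adjusted p of the slope passed the threshold in 3 of 8 other settings, at 0.0148 when only windows with at least 10 bins were tested, 0.0182 with all deposited bins and 0.0472 with bins that lack recurring values, and ranged up to 0.677. Over the series, 2 of 257, 12936 of 87577 and 390 of 36856 windows were called in these 3 settings, in that order. The window was named for its small p, so these passes are no separate support. When 1 sample was left out it ranged from 0.0634 to 0.547.

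**Figure D4:**
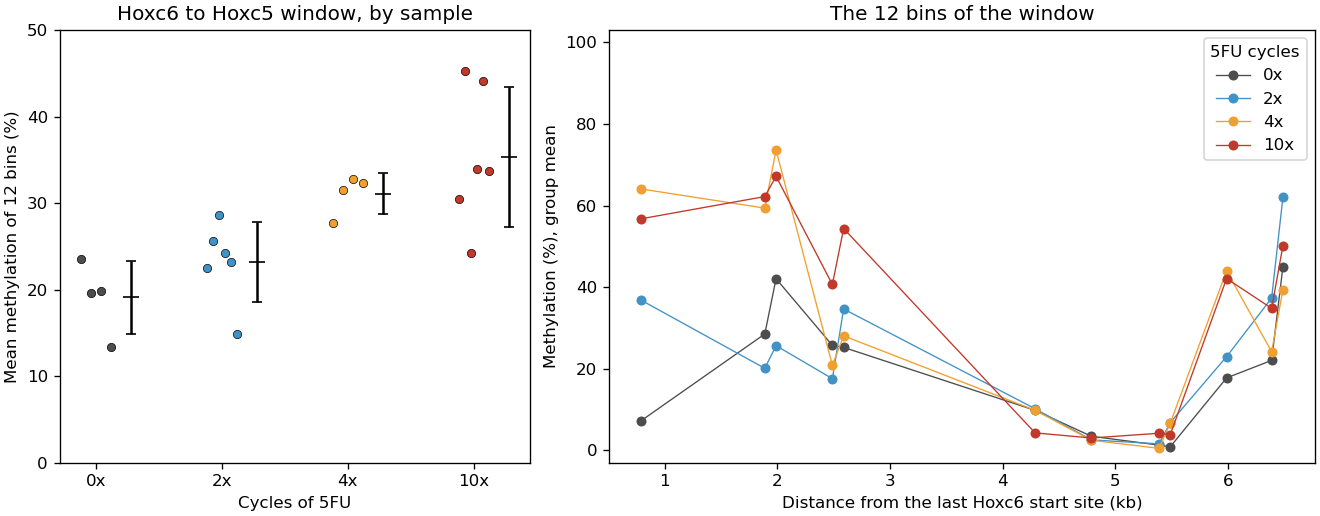
The 10 kb window whose fully varying bins lie from Hoxc6 to Hoxc5. The left panel shows the mean methylation (percent) of its 12 fully varying bins in each sample, with the mean ± SD as bars, and the right panel the group mean of each bin against distance from the last Hoxc6 start (kb); the 4x and 10x samples lie at 24.3% or higher and the 0x samples at 23.6% or lower.

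Single bins in and beside this window varied strongly between samples. The bin chr15:103010300-103010399, with its single CpG 788 bp after a Hoxc6 start, was at 28.9, 0, 0 and 0% in 0x, 0 to 100% (median 10.53%) in 2x, 64.7, 37.9, 100 and 53.6% in 4x, and 16.7 to 100% (median 57.4%) in 10x. All 4x samples were above all 0x samples. The differences were 56.8 points in 4x (SE 13.7, limma adjusted p = 0.975) and 49.5 points in 10x (SE 15, adjusted p = 0.562). A bin in the Hoxc6 exon 1888 bp after the same start was at 60.8, 0, 53.3 and 0% in 0x, 0 to 58.8% (median 11.5%) in 2x, 54.4, 59.6, 68.3 and 55.2% in 4x, and 36.8 to 82.6% (median 65.1%) in 10x. Its slope was 4.00 points per cycle (SE 1.32, limma adjusted p = 0.975).

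The neighbouring pair upstream of Hoxc5 was partly methylated in every group. In chr15:103012000-103012099 the values were 36.5, 18.3, 21.2 and 27.0% in 0x, 0 to 32.1% (median 20.4%) in 2x, 13.9, 39.7, 10.3 and 19.5% in 4x, and 26.5 to 52.6% (median 42.9%) in 10x, and the groups overlapped. Its slope was 2.08 points per cycle (SE 0.662, limma adjusted p = 0.975). The adjacent chr15:103012100-103012199 had a slope of 2.79 points per cycle (SE 1.09), or 1.75 without 10x sample 32, with 10x at 27.8 to 100% and 0x at 16.5 to 36.4%. Both directions occurred in HoxC. In chr15:102963700-102963799, 3046 bp before a Hoxc10 start, the values were 12.7, 18.3, 4.55 and 26.2% in 0x, 0 to 21.2% (median 0%) in 2x, 0, 3.18, 0 and 0% in 4x, and 0 to 12.7% (median 6.22%) in 10x. Here all 4x samples were below all 0x samples, and the difference was -14.7 points (SE 4.41, limma adjusted p = 0.975).

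In HoxD, the bin with the smallest p in 2x and in 10x lay 841 bp before a start of Hoxd10, a posterior gene, at chr2:74691000-74691099. It was at 16.9, 26.5, 16.2 and 9.97% in 0x, 25.7 to 56.5% (median 48.1%) in 2x, 8.45, 33, 13.7 and 21.4% in 4x, and 29.2 to 63.2% (median 37.6%) in 10x. All 10x samples were above all 0x samples, 2x overlapped 0x by 1 sample, and 4x overlapped 0x. The differences were 27.5 points in 2x (SE 6.43, limma adjusted p = 0.624), 1.76 points in 4x (SE 5.89) and 24.6 points in 10x (SE 6.99, adjusted p = 0.508). The whole Hoxd10 promoter, of 7 bins, was at 17.7% in 10x and 15.4% in 0x.

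The intronic bin of Hoxd3, an anterior gene, at chr2:74734700-74734799 was at 4.22, 0.500, 0 and 0% in 0x, 0 to 0.365% (median 0%) in 2x, 16.2, 12, 24.5 and 10.9% in 4x, and 0 to 17.9% (median 10.48%) in 10x. All 4x samples and 5 of 6 10x samples were above all 0x samples. The differences were 14.7 points in 4x (SE 3.22, limma adjusted p = 0.952) and 8.85 points in 10x (SE 2.99, adjusted p = 0.626). The bin 128 bp before the Hoxd4 start, chr2:74721800-74721899, had a slope of 3.16 points per cycle (SE 1.26, limma adjusted p = 0.975), or 1.95 without 10x sample 32, with 10x at 6.12 to 100% (median 38.9%) and 0x at 0.685, 14, 15.2 and 27.1%. Its groups overlapped.

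Other HoxD bins were lower after 5FU. Between Hoxd9 and Hoxd8, chr2:74700800-74700899 was at 63.0, 80.3, 44.6 and 50.6% in 0x, 28.1 to 50% (median 33.7%) in 2x, 40.1, 43.1, 41.0 and 42.9% in 4x, and 26.9 to 56.6% (median 47.4%) in 10x. All 4x samples were below all 0x samples, and the differences were -22.9 points in 2x (SE 7.13, limma adjusted p = 0.998), -17.8 points in 4x (SE 7.29; -11.0 without 0x sample 02) and -13.4 points in 10x (SE 7.79). At the start of Hoxd12, a posterior gene, a bin was at 6.87 to 18.3% (median 12.8%) in 10x and at 31, 26.6, 15.9 and 17.6% in 0x. This bin overlapped between the groups and was lower by 10.0 points in 10x, with a limma adjusted p of 0.614.

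**Figure D5:**
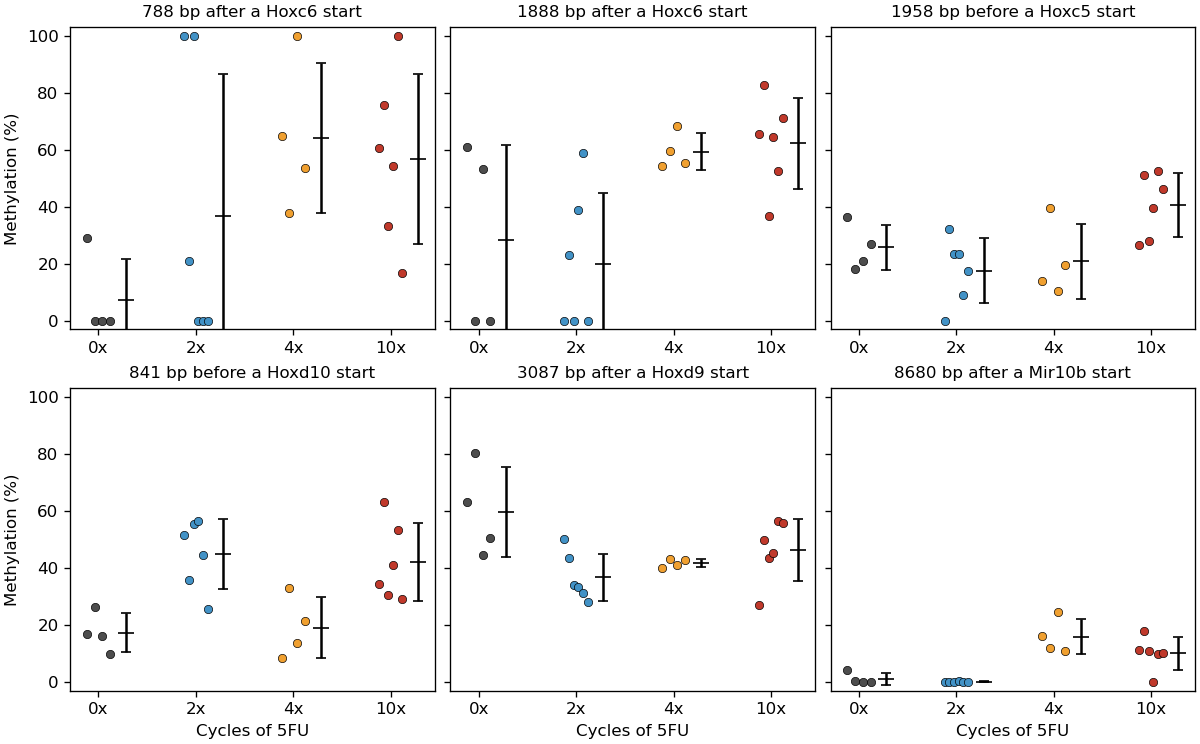
Methylation (percent) per sample in 6 bins of HoxC and HoxD, named by distance from a start site. Points are samples at 0, 2, 4 and 10 cycles and bars the mean ± SD, cut off at 0; in the Hoxd10 bin all 10x samples lie above the 0x samples and the 4x samples do not.

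The bins set apart from the fully varying ones gave another picture. The 94 HoxC bins with a constant group and no recurring value averaged 7.37, 3.93, 6.65 and 6.86% in 0x, 2x, 4x and 10x, and the 151 HoxC bins with recurring values 22.9, 20.9, 22.5 and 24.7%. The 91 and 140 HoxD bins of these kinds averaged 15.9, 15.7, 17.5 and 17%, and 22.0, 21.1, 21.0 and 19.9%. A group held a single value throughout in 259, 312, 207 and 187 of the 644 bins (0x, 2x, 4x and 10x). Examples were chr15:102948200-102948299, 304 bp before the start of Hotair, a long noncoding RNA gene of HoxC, which was 0 in all samples of 0x, 2x and 4x and 100 in all 6 samples of 10x, and chr2:74738400-74738499 in Hoxd3, which was 100 in all 6 samples of 2x and 0 in all others. In chr2:74720200-74720299, also in Hoxd3, all 0x and 4x samples were at 100 and all 2x samples at 0. How many samples were measured in such bins is unknown, and a value measured in 1 sample and filled in the others would look the same.

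When all deposited bins that vary between samples were tested in the same way, 42 of 249 HoxC bins and 34 of 234 HoxD bins were called in 2x, beside 20.2% in the series. In 4x 28 of 264 and 14 of 242 were called (series 12.2%), in 10x 26 of 265 and 19 of 245 (13.6%), and in the slope 16 of 281 and 21 of 266 (9.23%). All of the 42 HoxC calls in 2x and 27 of the 34 HoxD calls held recurring values. The HoxC calls in 2x were 20 higher and 22 lower, and in 10x they were 11 higher and 15 lower. A filled value adds no measurement, and the part of filling in these counts was not tested.

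Finally, the promoters of the other Hox clusters and of Hox cofactors and regulators were examined in the same fits. Of 11 HoxA and 10 HoxB genes, 8 and 9 had fully varying promoter bins, and of 37 cofactors and regulators 36 had. None was called in any of the 4 fits. At an unadjusted p under 0.05, Hoxa5 was the 1 HoxA gene that passed, lower in 2x by 27.4 points (limma adjusted p = 0.9999), and no HoxB gene passed. Median promoter levels at 0x were 8.07% for HoxA, 3.86% for HoxB, 8.62% for HoxC, 12% for HoxD and 2.67% for the regulators. Median differences in 10x were -2.25 points for HoxA, 0.543 for HoxB, -0.97 for HoxC and 0.681 for HoxD, beside -0.0079 over all genes. Among the 36 regulators in 10x, 2 had an unadjusted p under 0.05 as higher and 2 as lower, where 2.86% and 3.20% of all promoters had. In the other fits none was higher and 1 each was lower, Cdx1, a homeodomain regulator of Hox genes, in 2x (17.8 to 26.9%, against 31.96 to 47.4% in 0x samples, limma adjusted p = 0.682), Pbx2 in 4x (2.78 to 4.46%, against 6.05 to 6.92% in 0x samples), and Suz12, a subunit of PRC2, in the slope (-0.23 points per cycle). These shares stand beside 1.97%, 1.72% and 1.34% of all promoters. In 10x the higher ones were Dnmt3a, a de novo DNA methyltransferase (2.24 to 4.11% in 10x and 0.615 to 1.86% in 0x), and Ezh1, a histone methyltransferase of Polycomb complex PRC2 (2.09 to 4.52% in 10x and 0 to 1.89% in 0x). The lower ones were Bmi1, a subunit of Polycomb complex PRC1 (0.694 to 2.36% in 10x and 2.49 to 5.43% in 0x), and the Hox cofactor Pbx2 (2.09 to 5.33% in 10x and 6.05 to 6.92% in 0x). These 4 genes were at levels below 10% in both groups, and their limma adjusted p-values were 0.520 to 0.792.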

How the data were processed

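The deposited values, 1 percent methylation per 100 bp bin and sample, were made by the authors from RRBS reads trimmed with Trim Galore 0.4.3, aligned to mm10 with Bismark 0.23.1 and summarised with methylKit 1.22.0 from positions with at least 10 reads, with missing bins given the group mean. A planned count test was not possible without reads. Filling reduces the spread within a group, which can lower the p of bins that hold filled values. A value filled in only 1 sample does not recur and stays in. The 4 fits (2x, 4x and 10x against 0x, each on its 2 groups, and the slope over cycles on 20 samples) used limma 3.58.1 in R 4.3.3 on the percent, with Benjamini-Hochberg adjustment over all fully varying bins, gene promoters or 10 kb windows of the series. Tables were handled with pandas 2.3.3 and numpy 2.4.6 in Python 3.11.15 and plotted with matplotlib 3.10.9. The fits were tested on simulated data.

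Genes and sequences come from RefSeq of GRCm38. Almost all bins (99.98%) touch a CpG in that assembly. A bin was assigned to a promoter within 1 kb of any RefSeq TSS of a gene. The named items were every gene of the intervals with a promoter bin, the 3 bins of smallest p in each cluster and fit, the bins of highest and lowest 0x mean, the HoxA and HoxB genes, and 37 cofactors and regulators. Members and lists were chosen with earlier results of these data known. The bins at Hotair and 2 in Hoxd3 were named after their values were seen. Alternatives covered the set of bins, the fit, the scale, the windows, the label numbers 01 to 12 and 13 to 34, and each sample left out in turn.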

Additional observations from a re-analysis of the deposited data

Results flagged for a closer look

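The cluster means, the window, the promoters and the named bins gave 212 groups of 4 or 6 samples to check. In 32 of them, 1 sample was far from the others of its group by Dixon's criterion. Chance gives about 1 in 20 for normally spread values only. Many values here are exactly 0, and a lone value above 0 is then flagged however small, such as 0.448% with the others at 0. The count thus cannot be set against that rate. The promoters and bins share samples, and some share bins, so these are not independent.

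Sample 32 of 10x stood apart in promoters at the posterior end of HoxD and in that of Gm30528, at the anterior side of HoxC. The 1 promoter bin of Gm31790 is also 1 of the 2 Evx2 bins, so these values are not separate. Most promoter bins of Gm30528 lie beyond the end of the HoxC interval. Sample 32 was at 60.2% in the Evx2 promoter (the others at 8.65 to 18.4%), 100% in the Gm31790 promoter (0 to 24.2%), 26.9% in the Hoxd13 promoter (0 to 6.08%) and 37.1% in the Gm30528 promoter (5.34 to 10.8%), and it was low, at 50%, in the bin chr2:74725500 near Mir10b (86.2 to 91.8%). Sample 11 of 10x was high in the promoter shared by Hoxd1 and Haglr (15.1%) and in the Hoxd8 promoter (5.63%). Other high 10x samples were 12 in the Mir196a-2 promoter (30.4%), 31 in the Gm14424 promoter (10.3%) and in the bin chr15:102976000 (18.8%), and 34 in the bin chr2:74697800 (16.2%). Sample 12 was low in the bin chr2:74738900 (0%).

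In 2x, sample 04 was high in the Mir196a-2 promoter (53.8%), 17 in the Hoxc8 promoter (30.1%) and in the bins chr2:74701000 (62.5%) and chr2:74687700 (4.26%), 03 in the Evx2 promoter (57.3%), 16 in the Hoxd8 promoter (20.9%) and 15 in the bin chr2:74738900 (6.80%), and 16 was low in the bin chr2:74754400 (78.3%). In 4x, sample 06 was high in the bins chr2:74697800 (13%) and chr15:102963700 (3.18%) and 19 in chr2:74738900 (17.2%), and 20 was low in chr2:74721800 (0%). In 0x, sample 14 was high in the Hoxc5 promoter (12.6%), 02 was low in the Hoxd10 (11.6%) and Gm38462 (3.41%) promoters, 13 was high in the bins chr2:74697800 (0.448%) and chr15:102997900 (0.769%), and 01 in the bins chr2:74734700 (4.22%, the others at 0 to 0.500%) and chr15:103010300 (28.9%, the 3 others at 0). In 30 of the 168 fully varying bins, 1 sample exceeded the other 19 by over 30 points, which was 2x sample 03 in 7 bins and 10x sample 32 in 6.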

How the results depend on the processing

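Counts of calls in the clusters were 0 in the fully varying bins and depended on the set of bins. With all deposited bins that vary, 76, 42, 45 and 37 bins, 4, 3, 3 and 3 promoters, and 3, 2, 1 and 2 windows were called in 2x, 4x, 10x and the slope. The promoters tested numbered 31, 30, 31 and 31, and the windows 23 in each fit. In the series, 5688 of 24234, 3584 of 24717, 4000 of 24741 and 2452 of 25478 promoters were called. For windows the series had 26969 of 86695, 15772 of 87276, 20272 of 87310 and 12936 of 87577. With bins that lack recurring values but may have a constant group, 2, 1 and 1 bins were called in 2x, 10x and the slope, 1 promoter each in 10x and the slope, and 1, 1 and 2 windows in 2x, 10x and the slope. They came from 228, 249 and 260 bins, 30 promoters in each fit and 23 windows in each fit. The series had 4739 of 203020, 2649 of 246086 and 811 of 283752 bins called in these fits. It had 229 of 20104 and 81 of 20662 promoters called, and 2299 of 36187, 1303 of 36773 and 390 of 36856 windows. With at least 10 bins a window, 1 of 8 windows was called in the slope, beside 2 of 257 in the series. The other 79 of 100 alternatives, and each sample left out in turn (0 to 0), gave no call.

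The HoxC difference in 2x was -1.29 points with all deposited bins that vary, -0.48 with bins that lack recurring values and -0.087 on the log2 scale. It was -3.10 when each sample was summarised by the level of its median bin, which is another measure than the median of the bin differences (1.79). With the median bin of each sample the HoxC difference was 0.291 in 4x and 0.519 in 10x, and with all deposited bins that vary it was 0.603 in 4x. With bins of 20 to 80%, a choice that uses the treated samples, it was 6.99, 10.54 and 14.9 points in 2x, 4x and 10x. The HoxD difference in 2x was -2.56 with the median bin of each sample and -0.27 on the log2 scale. In 10x it was -0.22 with all deposited bins that vary, and with bins of 20 to 80% it was 6.66 in 4x and 7.69 in 10x. With 1 sample left out, the differences of 2x, 4x and 10x from 0x were 2.54 to 3.92, 2.84 to 4.32 and 2.88 to 5.10 for HoxC, and -0.46 to 1.09, 0.0513 to 1.13 and 1.24 to 2.40 for HoxD. The cause of these shifts was not tested.

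For 37 results on named bins, promoters and the window, 825 alternatives were run. None reversed the direction, and 13 passed the threshold where the fully varying bins did not. Many alternatives could not change a difference, since the set of bins or the test leaves the values of a single bin as they are. All of these results but those of the window were also taken at an unadjusted p under 0.05. The kept direction is thus no separate support. The size moved by over 1.5 times in 38 alternatives of 19 results, 8 of them by leaving out 1 sample. Within 500 bp of a TSS the Hoxc6 promoter difference was 5.38 points in 4x and 10.8 in 10x with a slope of 0.764, and that of Mir615 was 2.49, 2.93 and 0.165. With all deposited bins that vary, Hoxc6 in 10x was at 11.2 and Mir615 in 4x at 10.9 points. Leaving out bins with a value equal to the mean of the rest of its group removed no cluster bin. No paired analysis was possible because no sample number occurs in more than 1 group. Depth is unknown, so no counting error can be given. The median SD of a bin was 6.58 to 11.5 points over the 4 groups.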
